A study of Arabidopsis thaliana with 32 samples.

Results

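After 3 h of heat shock, elongating RNA polymerase II (RNAPII) was compared between tfiis-1 and Col-0 seedlings of Arabidopsis thaliana, and the 2 lists of differing sites from this time are described here. They hold 15134 different summits of the 29485 in the whole series, where a summit is the single base pair at which the authors called one genotype above the other. All summits of both lists were taken, and repeated lines were counted once. The tfiis-1-higher list holds 12084 summits in 6499 genes, and the Col-0-higher list holds 3050 summits in 2957 genes. By comparison, the lists of 0 min, 10 min and 30 min of heat shock hold 1568, 3815 and 8968 summits.

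The tested plants carried tfiis-1, a mutant allele of the gene for the transcription elongation factor TFIIS, and the wild type was Col-0. Seedlings of both genotypes were grown in vitro, taken 14 days after stratification and exposed to heat shock for 3 h. Each genotype had 3 chromatin immunoprecipitation (ChIP) libraries and 1 input library at this time, 8 of the 32 samples of the series, and the other samples were taken after 0 min, 10 min and 30 min. The immunoprecipitation used an antibody against RNAPII phosphorylated at Ser2 of the repeats of its C-terminal domain (S2P). Whole seedlings were used, so cell types are pooled in every library, and neither the way the tfiis-1 allele was made nor the temperature of the heat shock was given in the sources used here.

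RNAPII that meets an obstacle can slide backwards on the template, which pushes the 3′ end of the nascent RNA out of the active site and arrests the enzyme. TFIIS stimulates the polymerase to cut off this displaced end, so that transcription can resume. Phosphorylation of Ser2 accumulates as RNAPII elongates through a gene and is commonly highest towards the 3′ end, where cleavage and termination factors act. An S2P ChIP signal therefore counts polymerases on the gene and their phosphorylation together, and it does not show how fast they move.

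The lists give for each summit its position and the gene and strand that hold it. No value per library is in them, so the depth behind a call is unknown, the spread between the 3 ChIP libraries cannot be given, and no test between the genotypes could be run here. A gene is "called" where the authors' lists put at least 1 summit in it, and every number below describes those calls. The genotypes cannot be compared by size of signal at any site. Intervals are exact (Clopper-Pearson) 95% intervals, which cover counting error only, and summits or genes are not replicates. As a background, 23.7% of the 27444 nuclear protein-coding genes were tfiis-1-higher at 3 h and 10.8% were Col-0-higher, and 28.7%, or 7877 genes, were in at least 1 of the lists. The gene of TFIIS itself (AT2G38560) was in neither list, which does not check the genotypes, since the mutation need not change the RNAPII signal on the gene.

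Most sites that differed after 3 h of heat were higher in tfiis-1, and they lay in the bodies of genes, whereas sites higher in Col-0 lay at gene ends. Of all summits, 79.8% (79.2 to 80.5) were tfiis-1-higher, and counted by genes the share was 68.7%. Position was measured from 0 at the annotated gene start to 1 at the annotated gene end, in the direction of transcription. The median position was 0.40 (quartiles 0.20 and 0.63) among tfiis-1-higher summits and 0.95 (quartiles 0.82 and 0.98) among Col-0-higher ones. In the last 10% of the gene's length lay 4.23% (3.88 to 4.61) of the tfiis-1-higher summits and 65.5% (63.9 to 67.2) of the Col-0-higher ones. The opposite held at the other end, with 11.7% (11.2 to 12.3) of tfiis-1-higher summits and 4.01% (3.36 to 4.75) of Col-0-higher summits in the first 10% of the length. The place of Col-0-higher summits at gene ends was not particular to 3 h. In the 30 min list their median position was 0.95, with 63.5% in the last 10% of the length.

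**Figure D1:**
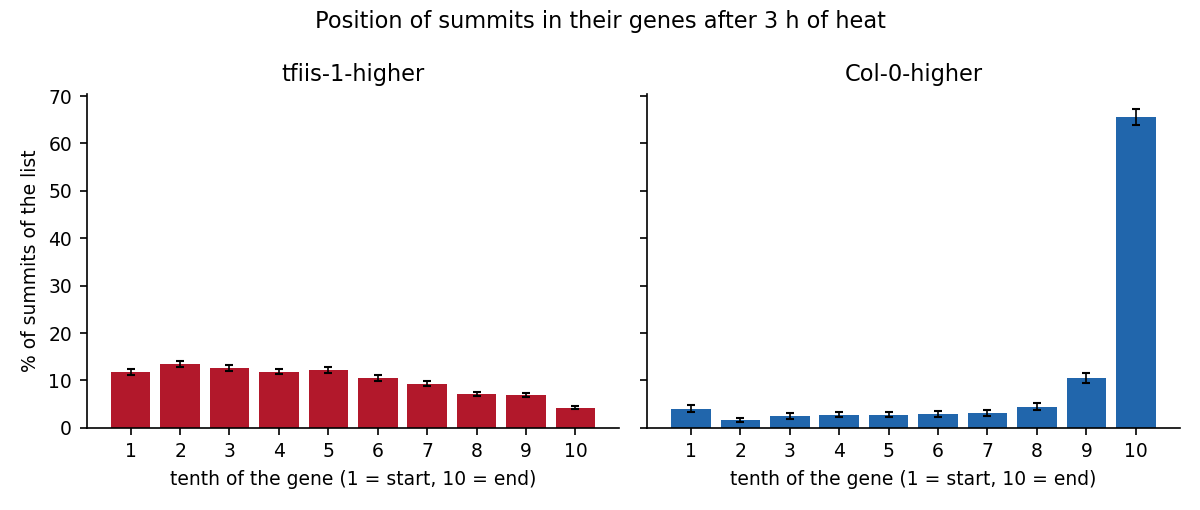
Percent of the summits of each 3 h list (y axis) in 10 equal parts of the gene (x axis, 1 at the annotated start and 10 at the annotated end), with tfiis-1-higher summits on the left and Col-0-higher summits on the right. Bars are shares of summit and gene pairs and error bars are exact 95% intervals; the last bar is 4.23% in the left panel and 65.5% in the right panel.

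The plot of these parts shows a different shape for each list. Tfiis-1-higher summits were spread over parts 1 to 6, with 10.5% to 13.5% of summits in each, and became fewer from part 7 on. Of the Col-0-higher summits 1.59% to 4.45% lay in each of parts 2 to 8, then 10.4% in part 9 and 65.5% in part 10. Counted in base pairs, the median tfiis-1-higher summit lay 1215 bp from the gene start and 1760 bp from the gene end. The median Col-0-higher summit lay 2257 bp from the start and 117 bp from the end, and 45.3% of these summits were within 100 bp of the end. Whether Col-0 was also higher past the annotated end is not analysed here, because the lists hold summits inside genes.

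Within the first 500 bp, the lists differed in where they began. In the first 100 bp of genes lay 0.625% (0.493 to 0.781) of the tfiis-1-higher summits, 76 in number. From there their density climbed and was highest between 200 and 225 bp from the start, with 217 summits, or 1.78% of the list. Col-0-higher summits did the reverse: 109 of them, 3.39% (2.79 to 4.08), lay within 100 bp of the start, and the bins between 150 and 325 bp held 3 to 7 each.

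**Figure D2:**
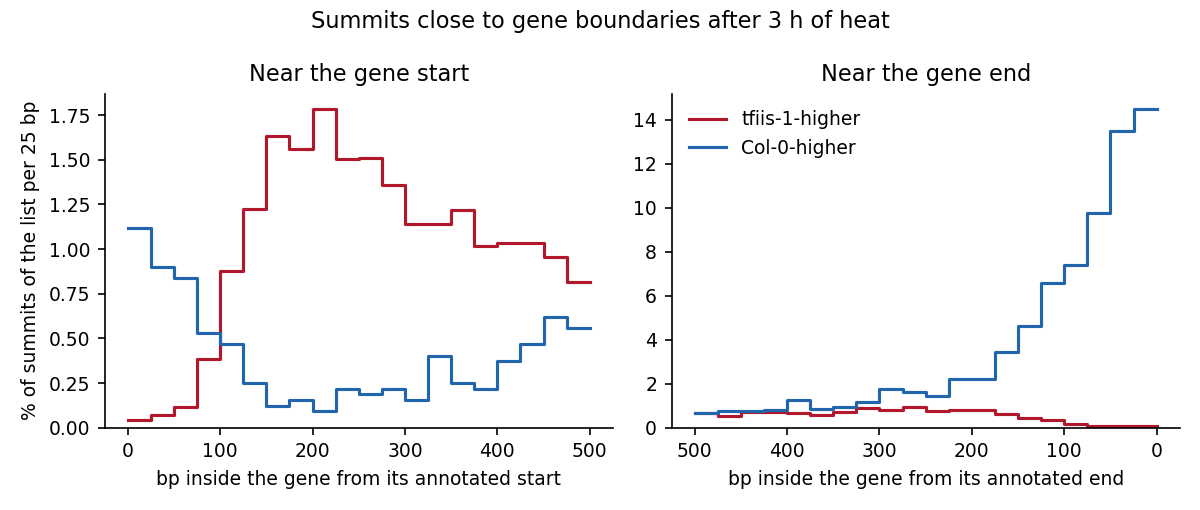
Percent of the summits of each list per 25 bp (y axis) against the distance in bp inside the gene from its annotated start (left panel) and from its annotated end (right panel), with tfiis-1-higher in red and Col-0-higher in blue. The red line peaks at 1.78% between 200 and 225 bp from the start, and the blue line reaches 14.5% in the last 25 bp before the end; the panels have different y scales.

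The 109 genes with a Col-0-higher summit within 100 bp of their start stood close to a neighbouring gene. The annotated end of the next protein-coding gene on the 5′ side lay a median of 17 bp away, and in 106 of the 109 (97.2%, 92.2 to 99.4) it lay within 500 bp or overlapped. For all Col-0-higher genes the median gap to that neighbour was 912 bp and 37.4% (35.6 to 39.2) had it within 500 bp. The strand of the neighbour was given by the lists in 97 cases, and it was the same strand in 93 of them, so that the summit at the start of the named gene lay close to the 3′ end of another. That neighbour was itself tfiis-1-higher in 86 of the 109 cases (78.9%, 70.0 to 86.1), against 28.6% (26.9 to 30.2) for the neighbours of all Col-0-higher genes. The 76 genes with a tfiis-1-higher summit within 100 bp of their start had a median gap of 381.5 bp, and 24 of their neighbours were tfiis-1-higher. To which of the 2 adjoining genes such a Col-0-higher call belongs cannot be told apart from the lists.

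Genes held several tfiis-1-higher summits but usually 1 Col-0-higher summit. Of the tfiis-1-higher genes 3503 (53.9%, 52.7 to 55.1) had 2 or more summits, which is 12.8% of all nuclear protein-coding genes, and of the Col-0-higher genes 199 (6.73%) did, which is 0.725% of all. Neighbouring tfiis-1-higher summits in a gene were a median of 906 bp apart, with 480 bp and 1770.5 bp at the 10th and 90th percentiles. Summits in the lists are 1 bp wide, so whether those of 1 gene come from separate peaks cannot be told. The first summit lay nearer the start where a gene had more of them: its median was 882.5 bp in the 2996 genes with 1 summit, 574 bp in the 2049 genes with 2 and 448 bp in the 939 genes with 3. Since it is the earliest of the summits in a gene, part of this trend is built in.

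The gene with most tfiis-1-higher summits was LBA1 (AT5G47010), which encodes UPF1, the RNA helicase of nonsense-mediated decay. Its 10 summits ran from 140 bp after the start (TAIR10 chromosome 5, 19071964) to position 0.84 (19078211), and its only Col-0-higher summit (19079442) lay 11 bp before the end. REF6 (AT3G48430), a histone demethylase that removes methyl groups from lysine 27 of histone H3, had 8 tfiis-1-higher summits between 0.02 and 0.82 and a Col-0-higher summit at 0.98. AT5G42950 had 8 tfiis-1-higher summits between 0.06 and 0.89 and a Col-0-higher summit at 0.99. In all 3 genes the tfiis-1-higher summits covered most of the gene and the Col-0-higher summit came after them.

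Other genes at the top of the tfiis-1-higher list had no Col-0-higher summit. RBP45B (AT1G11650), an RNA-binding protein, had 6 summits between 0.05 and 0.74, and UBP6 (AT1G51710), a deubiquitinating enzyme, had 6 between 0.09 and 0.80. CHB3 (AT4G34430), the SWI3D subunit of SWI/SNF chromatin remodellers, had 6 between 0.03 and 0.94. AT1G02890 and AT3G62900 had 7 each. Per length, the densest gene of 3 or more summits was AT4G34920 with 2.03 summits per kb, followed by AT1G61730 with 1.94 per kb and NRPB5 (AT3G22320), the gene of an RNAPII subunit, also with 1.94 per kb. NRPB5 had its summits at 0.11, 0.38 and 0.88 in a gene of 1547 bp.

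The share of genes called grew with gene length in both directions. In 5 classes of equal size by gene length, from the shortest to the longest, 3.62%, 14.6%, 25.8%, 31.9% and 42.4% of genes were tfiis-1-higher. The Col-0-higher shares in the same classes were 3.77%, 9.17%, 11.3%, 12.5% and 17.2%. In percentage points the lists were close to equal in the shortest class and furthest apart in the longest. Tfiis-1-higher summits per called gene went from 1.05 in the shortest class to 2.40 in the longest, while Col-0-higher summits per called gene stayed between 1.05 and 1.12. A share of any gene group below should be read with the length of its genes. By chromosome the shares ranged from 21.8% to 25.02% (tfiis-1-higher) and from 10.3% to 11.5% (Col-0-higher).

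**Figure D3:**
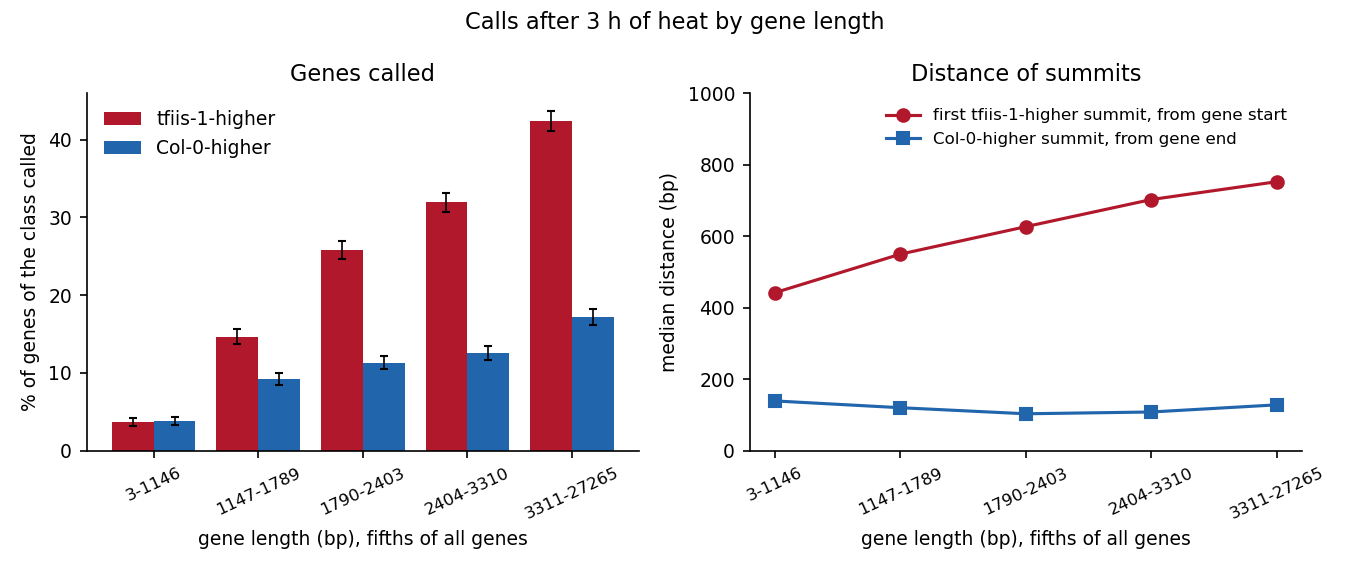
Left, percent of nuclear protein-coding genes called (y axis) in 5 classes of gene length in bp (x axis), tfiis-1-higher in red and Col-0-higher in blue, with exact 95% intervals; right, the median distance in bp of the first tfiis-1-higher summit from the gene start (red) and of the Col-0-higher summits from the gene end (blue) in the same classes. The red bars reach 42.4% and the blue bars 17.2% in the longest class, and the blue points stay between 103 and 139 bp.

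Distances to the gene boundary depended on length in different ways. The median distance of Col-0-higher summits from the gene end was 139, 120, 103, 108 and 128 bp from the shortest class to the longest, so it hardly moved while gene length changed severalfold. The median distance of the first tfiis-1-higher summit from the gene start was 442, 550, 627, 703 and 753 bp in the same classes. The shortest class has a median length of 771 bp and the longest 4234 bp, so the first tfiis-1-higher summit moved far less than the length did. Position as a share of the gene mixes these, and the share of Col-0-higher summits in the last 10% of the length went from 35.2% in the shortest class to 73.1% in the longest.

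Many genes were higher in tfiis-1 in one place and higher in Col-0 in another. Both lists named 1578 genes, 24.3% of the tfiis-1-higher genes and 53.4% of the Col-0-higher genes, or 5.75% of all nuclear protein-coding genes. Both lists come from the same libraries, and both favour long genes. In 1536 of the 1578 (97.3%, 96.4 to 98.1) every tfiis-1-higher summit lay upstream of every Col-0-higher summit. The order was reversed in 30 genes (1.90%), and summits of the lists alternated in 12 (0.760%). This order follows in part from the median positions of 0.40 and 0.95. Opposite summits were a median of 1276.5 bp apart at their nearest, and in 187 genes (11.9%) they came within 500 bp.

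Positions in these shared genes differed from those in genes of 1 list. Col-0-higher summits lay at a median of 0.97, 85 bp from the end, in genes of both lists, and at 0.91, 171 bp from the end, in the 1379 genes that were Col-0-higher alone. The last 10% of the length held 78.8% (76.8 to 80.8) of them in shared genes and 51.5% (49.0 to 54.0) in genes of this list alone. Tfiis-1-higher summits lay at a median of 0.34 in shared genes and 0.42 in the 4921 genes that were tfiis-1-higher alone. Shared genes were longer, with a median of 3145.5 bp, than genes that were tfiis-1-higher alone (2683 bp) or Col-0-higher alone (2018 bp), against 2078 bp for all nuclear protein-coding genes. The part of gene length in these differences was not tested.

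The smallest distance between opposite summits was 154 bp, in AT5G06700, with tfiis-1-higher summits at 0.44 and 0.80 and a Col-0-higher summit at 0.85. In AT5G43460 it was 161 bp, with tfiis-1-higher summits at 0.06 and 0.67 and a Col-0-higher summit at 0.73. BRI1 (AT4G39400), the brassinosteroid receptor, had tfiis-1-higher summits at 0.56 and 0.93 and a Col-0-higher summit 169 bp further on at 0.97. SDH1-1 (AT5G66760), a subunit of mitochondrial succinate dehydrogenase, had them at 0.39, 0.92 and 0.97 in the same order, 171 bp apart at the nearest. MEKK1 (AT4G08500), a kinase of a stress-activated cascade, had tfiis-1-higher summits at 0.05, 0.61 and 0.93 and a Col-0-higher summit 175 bp past the last of them. The change from tfiis-1-higher to Col-0-higher lay at 0.80 or beyond in 4 of these 5 genes and between 0.67 and 0.73 in AT5G43460.

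Genes with the reversed order were few. AT1G19720 (TAIR10 chromosome 1, 6819564 to 6822711, read from the higher coordinate) had its Col-0-higher summit at 0.14 and tfiis-1-higher summits at 0.20, 0.39, 0.62 and 0.93. In AT5G23610 (chromosome 5, 7957249 to 7960446) the Col-0-higher summit lay 10 bp from the start and the tfiis-1-higher summits at 0.32, 0.50 and 0.92. RPSAb (AT3G04770), a protein of the small ribosomal subunit, had a Col-0-higher summit 48 bp from the start and tfiis-1-higher summits at 0.63 and 0.89. The Col-0-higher summits of AT5G23610 and RPSAb are among the 109 within 100 bp of a gene start. RIC1 (AT2G33460), an effector of ROP GTPases, had Col-0-higher summits at 0.43 and 0.69 and a tfiis-1-higher summit at 0.93.

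**Figure D4:**
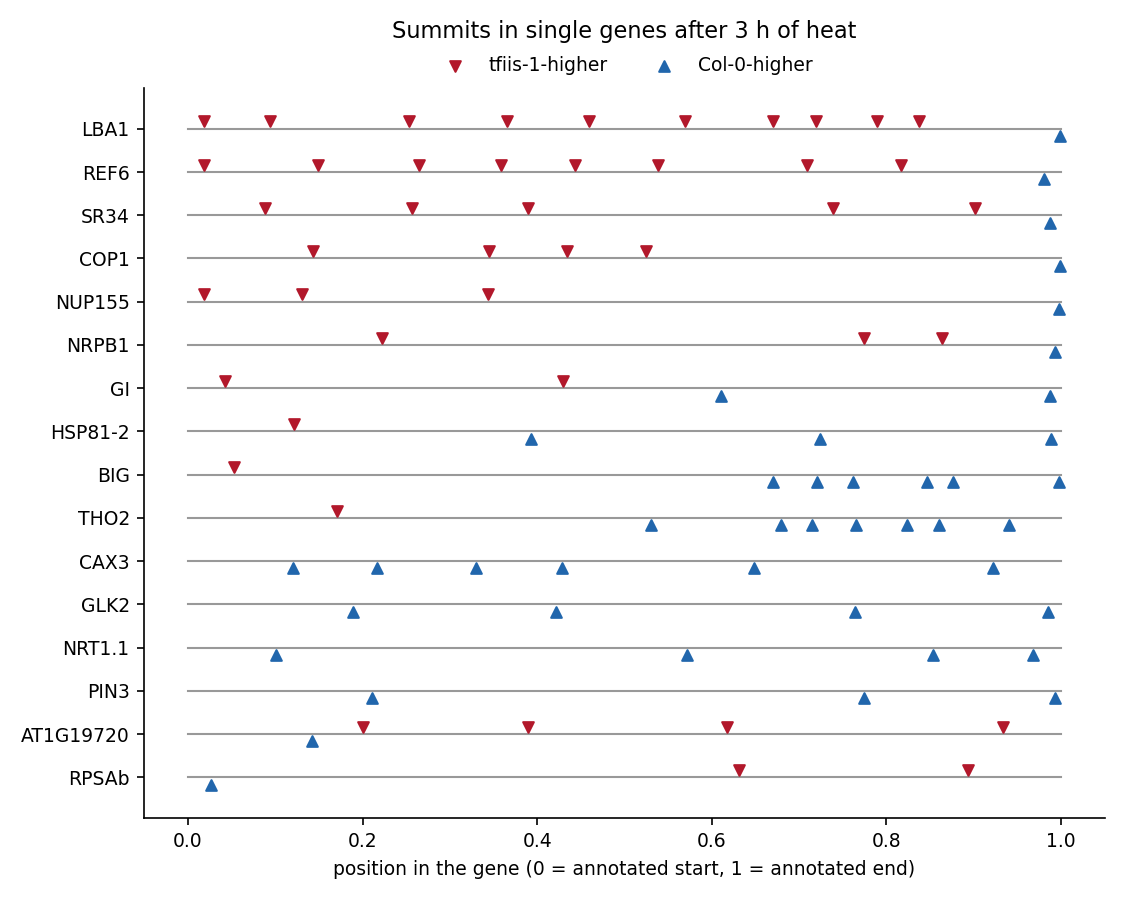
Summits of 16 genes (y axis) by position in the gene (x axis, 0 at the annotated start and 1 at the annotated end), with tfiis-1-higher summits as red triangles above each line and Col-0-higher summits as blue triangles below it. From LBA1 to THO2 every red triangle lies to the left of every blue one, CAX3, GLK2, NRT1.1 and PIN3 have blue triangles alone, and in AT1G19720 and RPSAb the blue triangle comes first.

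Col-0-higher genes with several summits had them in other places than those with 1. In the 2758 genes with a single Col-0-higher summit, its median position was 0.96 and 71.5% (69.8 to 73.2) of summits lay in the last 10% of the length. In the 199 genes with 2 or more, the median was 0.69 and 29.2% (25.1 to 33.6) lay there. A gene with several summits cannot have them all close to the end, so part of this difference is built in. Of the genes with a single Col-0-higher summit 55.4% (53.5 to 57.2) were also tfiis-1-higher, and of those with 2 or more 25.6% (19.7 to 32.3) were. The median gene length was 2562.5 bp for a single summit and 2777 bp for 2 or more.

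Some of these genes had Col-0-higher summits over their whole length. CAX3 (AT3G51860), a vacuolar cation/proton exchanger, had 6 at 0.12, 0.22, 0.33, 0.43, 0.65 and 0.92, the first at chromosome 3, 19239738 and the last at 19242630, and it was in no list of an earlier time. GLK2 (AT5G44190), a transcription factor of chloroplast development, had 4 between 0.19 and 0.98, and RPT2 (AT2G30520), a phototropism signalling protein, had 4 between 0.24 and 0.97. XYL1 (AT1G68560), an alpha-xylosidase of the cell wall, had 4 between 0.23 and 0.98. None of these 4 genes had a tfiis-1-higher summit at 3 h, but GLK2, RPT2 and XYL1 were tfiis-1-higher at 10 min and at 30 min.

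In longer genes with many Col-0-higher summits the pattern was divided. THO2 (AT1G24706; TAIR10 chromosome 1, 8741836 to 8755604), a subunit of the THO complex that packages nascent RNA for export, had 1 summit higher in tfiis-1, at 0.17, and 7 higher in Col-0, from 0.53 to 0.94. BIG (AT3G02260; chromosome 3, 430877 to 448680), a very large protein needed for auxin transport, had 1 higher in tfiis-1, at 0.05, and 6 higher in Col-0, from 0.67 to 46 bp before the end. AT4G17140, of 23544 bp, had tfiis-1-higher summits at 0.14, 0.26 and 0.35 and 5 Col-0-higher summits from 0.47 to 0.87. In these genes Col-0 was higher over a long downstream stretch rather than at the end alone.

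Further genes with 2 or more Col-0-higher summits and no tfiis-1-higher one are named here as examples, chosen after their values were seen. NRT1.1 (AT1G12110), the dual-affinity nitrate transporter, had 4 Col-0-higher summits at 0.10, 0.57, 0.85 and 0.97. NIA2 (AT1G37130), a nitrate reductase, had summits at 0.28 and 0.97, and NIR1 (AT2G15620), the nitrite reductase, had summits at 0.55 and 0.84. The auxin efflux carriers PIN3 (AT1G70940) and PIN7 (AT1G23080) had 3 each, at 0.21, 0.77 and 0.99 in PIN3 and at 0.19, 0.44 and 0.90 in PIN7. CAT2 (AT4G35090), a peroxisomal catalase, had summits at 0.22 and 0.93. CA1 (AT3G01500), a chloroplast carbonic anhydrase, had summits at 0.04 and 0.37, both in the upstream part of the gene. GPT2 (AT1G61800), a glucose 6-phosphate transporter of plastids, had summits at 0.14 and 0.97. EFE (AT1G05010), which makes ethylene, had them at 0.31 and 0.97, and GAPC1 (AT3G04120), a glycolytic dehydrogenase, at 0.19, 0.31 and 0.94. At 10 min 9 of these 10 genes had been tfiis-1-higher and GPT2 had not. Among all Col-0-higher genes of 3 h the share was 42.0%. Genes picked after their values were seen cannot stand for that list, so no conclusion is drawn from the 9 of 10. At 30 min NIA2, PIN3 and PIN7 were tfiis-1-higher, and CAT2 and CA1 were already Col-0-higher.

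Most genes called at 3 h had been called at an earlier time. Of the tfiis-1-higher genes 2280 (35.1%, 33.9 to 36.3) were in no earlier tfiis-1-higher list, and of the Col-0-higher genes 2386 (80.7%, 79.2 to 82.1) were in no earlier Col-0-higher list. With earlier calls in either direction counted, 2201 (33.9%) of the tfiis-1-higher genes and 921 (31.1%) of the Col-0-higher genes were new. The gap between 80.7% and 31.1% comes from 1465 genes that were Col-0-higher at 3 h and had earlier been called tfiis-1-higher alone. Their Col-0-higher summits at 3 h had a median position of 0.96, with 70.4% in the last 10% of the length. How many of the 1465 genes were also tfiis-1-higher at 3 h was not counted. Among all Col-0-higher genes of 3 h 53.4% were. The earlier Col-0-higher lists were short, at 0.113%, 0.251% and 3.16% of genes at 0 min, 10 min and 30 min, which limits how many genes could have been called there before. The earlier tfiis-1-higher lists held 4.9%, 10.9% and 16.6% of genes.

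Most genes called earlier in tfiis-1 were still called at 3 h. From the tfiis-1-higher lists of 0 min, 10 min and 30 min, 80.5%, 61.3% and 82.2% of genes recurred in that of 3 h, against 23.7% of all genes. Of the 867 Col-0-higher genes of 30 min, 63.9% (60.6 to 67.1) were Col-0-higher at 3 h, against 10.8% of all genes. In the opposite direction 58.4% (55.0 to 61.7) of them were tfiis-1-higher at 3 h, also above the 23.7% of all genes. A share of recurring genes above that of all genes is thus not particular to 1 direction. The part of gene length in these shares was not tested. The genes that were new in both directions at 3 h were shorter for Col-0-higher, with a median of 2097 bp, than for tfiis-1-higher, with 2434 bp.

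Several genes new at 3 h held many summits at once. AT5G17910 and AT1G06900 had 6 tfiis-1-higher summits each, and AT4G33140, AT4G08510, AT1G64530 and ADK1 (AT1G03930), the last a casein kinase I family gene, had 5 each. The first summit of AT1G06900 lay 20 bp from the start. Among new Col-0-higher genes, ALMT1 (AT1G08430), the malate transporter of aluminium tolerance, had summits at 0.16, 0.53 and 0.84. SKS6 (AT1G41830), of a family related to multicopper oxidases, had them at 0.30, 0.43 and 9 bp before the end. AT3G19240 had 4, at 0.19, 0.36, 0.77 and 0.91, and AT1G72800 and AT5G28300 had 3 each.

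Within genes that were tfiis-1-higher both at 3 h and at 30 min, the first summit lay further upstream at 3 h. Of 3739 such genes, 2700 (72.2%, 70.7 to 73.6) had it further upstream at 3 h, 1017 further downstream and 22 at the same base. The median distance of the first summit from the gene start was 675 bp at 3 h and 1149 bp at 30 min, and the median shift per gene was -139 bp. Shifts of more than 100 bp were upstream in 1947 genes and downstream in 387. More genes had gained summits by 3 h (1312) than had lost them (858), and a gene with more summits tends to have an earlier first one. In the 933 genes with 1 summit at both times the direction was the same but the shift smaller: 612 (65.6%, 62.4 to 68.6) moved upstream and 317 downstream, with medians of 908 bp at 3 h and 1145 bp at 30 min and a median shift of -27 bp.

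Set against the earlier times, the same held. Of 1083 genes that were tfiis-1-higher at 3 h and at 0 min, 74.0% (71.2 to 76.6) had the first summit further upstream at 3 h, with medians of 665 bp and 1050 bp, and in the 388 of them with 1 summit at both times the share was 62.4% (57.3 to 67.2). Of 1832 genes shared with 10 min, 84.7% (82.9 to 86.3) did, with medians of 630 bp at 3 h and 1815.5 bp at 10 min. For Col-0-higher summits the counts were closer: of 554 genes shared between 3 h and 30 min, 264 had the first summit further upstream at 3 h and 287 further downstream, and the median shift was 2 bp. Shifts of more than 100 bp were upstream in 90 of these genes and downstream in 58.

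Gene lists were used to see which functions the called genes served. The counts of members are set beside the 23.7% and 10.8% of all nuclear protein-coding genes that were tfiis-1-higher and Col-0-higher, with no test, and list members are often longer than the median gene of 2078 bp. Of the 18 lists, 17 had more than 23.7% of members tfiis-1-higher or more than 10.8% Col-0-higher, or both, as the plot of members shows.

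**Figure D5:**
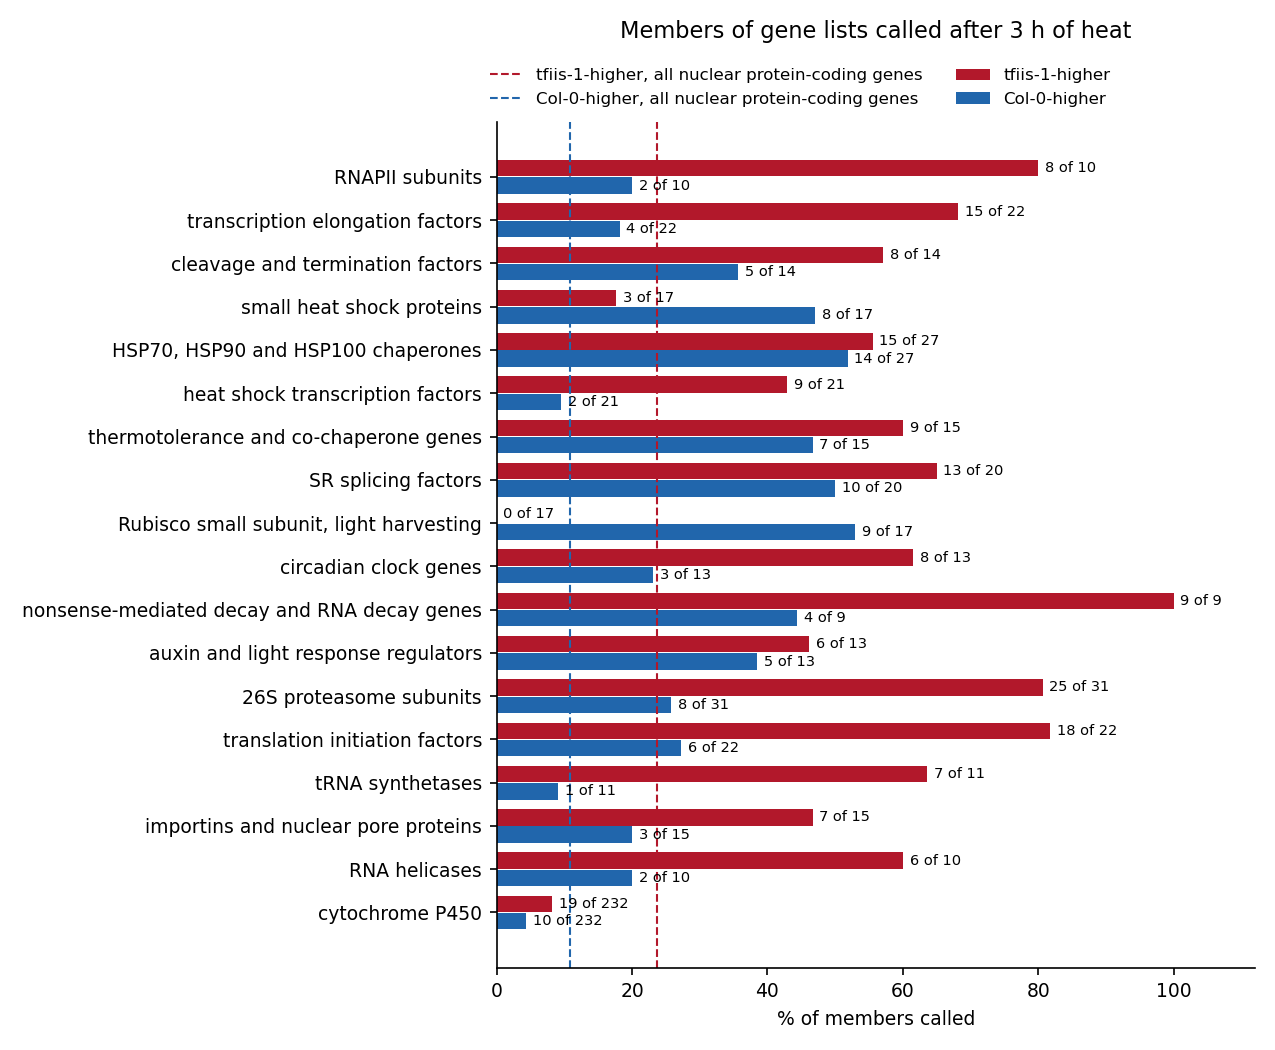
Percent of the members of each gene list (x axis) that were tfiis-1-higher (red) or Col-0-higher (blue) at 3 h, with the number called of the number in the list beside each bar. Dashed lines are the same shares over all nuclear protein-coding genes, 23.7% in red and 10.8% in blue; the nonsense-mediated decay list reaches 9 of 9 in red and the Rubisco and light-harvesting list 0 of 17.

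Genes of the transcription machinery were more often tfiis-1-higher than Col-0-higher, as were all nuclear protein-coding genes (23.7% and 10.8%). Of 10 genes of RNAPII subunits, 8 were tfiis-1-higher, and 2 of these were also Col-0-higher. Their median length of 1802.5 bp lies in the class in which 25.8% of all genes were tfiis-1-higher and 11.3% Col-0-higher. NRPB1 (AT4G35800; TAIR10 chromosome 4, 16960558 to 16968128), the largest subunit and the bearer of the Ser2 repeats, had tfiis-1-higher summits at 0.22, 0.77 and 0.86 and a Col-0-higher summit 57 bp before the end. NRPB2 (AT4G21710), the second largest, had 4 tfiis-1-higher summits at 0.07, 0.47, 0.60 and 0.70. Of 22 genes of elongation factors, TFIIS included, 15 were tfiis-1-higher and 4 of these were also Col-0-higher. CYCT1;4 (AT4G19600), a cyclin T of the P-TEFb kinase that phosphorylates Ser2, had 4 tfiis-1-higher summits from 0.10 to 0.65 and a Col-0-higher summit 46 bp before the end. GTA2 (AT4G08350), a SPT5 subunit, had 4 tfiis-1-higher summits from 0.19 to 0.71, and SPT16 (AT4G10710), of the histone chaperone FACT, had 4 from 0.07 to 0.94.

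Factors of 3′ end formation followed the general order. Of 14 genes for cleavage, polyadenylation and termination, with a median length of 6018 bp, 8 were tfiis-1-higher and 5 Col-0-higher, with 3 in both lists. The intervals of these shares, 28.9 to 82.3 and 12.8 to 64.9, include the 42.4% and 17.2% of the longest length class. XRN3 (AT1G75660), a nuclear exonuclease, had 4 tfiis-1-higher summits, all in the upstream part, from 0.03 to 0.35. FY (AT5G13480), a polyadenylation factor, had tfiis-1-higher summits at 0.30 and 0.51 and a Col-0-higher summit 22 bp before the end. FCA (AT4G16280), an RNA-binding regulator of flowering, had the same order far from the end, being tfiis-1-higher at 0.21 and Col-0-higher at 0.38.

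Most genes of RNA decay and of SR splicing factors were called. All 9 genes of nonsense-mediated decay and RNA decay were tfiis-1-higher, each with 2 or more summits, and 4 of them were also Col-0-higher, at 0.99 or beyond. These genes have a median length of 5156 bp, and in the longest length class 42.4% of all genes were tfiis-1-higher and 17.2% Col-0-higher. UPF3 (AT1G33980), a partner of UPF1, had tfiis-1-higher summits at 0.33 and 0.85 and a Col-0-higher summit 5 bp before the end. DCP5 (AT1G26110), of the decapping complex, had tfiis-1-higher summits at 0.09 and 0.50.

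Among 20 genes of SR proteins, a family of splicing factors, 13 were tfiis-1-higher and 10 Col-0-higher, with 7 in both lists. Their median length of 2876.5 bp lies in the class in which 31.9% of all genes were tfiis-1-higher and 12.5% Col-0-higher. All 10 Col-0-higher summits of this family lay in the last 10% of the length, with a median of 0.99. SR34 (AT1G02840) had tfiis-1-higher summits at 0.09, 0.26, 0.39, 0.74 and 0.90 and a Col-0-higher summit 43 bp before the end. SR30 (AT1G09140) had tfiis-1-higher summits at 0.12 and 0.46 and a Col-0-higher summit 11 bp before the end. SR45a (AT1G07350) and SCL30A (AT3G13570) were Col-0-higher alone, at 0.99 in each.

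Small heat shock protein genes, which are short with a median of 978 bp, were tfiis-1-higher in 3 of 17 cases and Col-0-higher in 8, and 2 of them were in both lists. In the shortest length class 3.62% of genes were tfiis-1-higher and 3.77% Col-0-higher. HSP17.6A (AT5G12030) had its Col-0-higher summit at 0.95, HSP18.2 (AT5G59720) at 0.64 and ATHSP22.0 (AT4G10250) at 0.45, none with a tfiis-1-higher summit. In the last 10% of the length lay 4 of the 8 Col-0-higher summits of this family, against 35.2% of all Col-0-higher summits in the shortest length class. AT2G19310 was tfiis-1-higher at 0.34 and Col-0-higher at 0.97.

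Of 27 genes of HSP70, HSP90 and HSP100 chaperones, which refold or disaggregate proteins, 15 were tfiis-1-higher and 14 Col-0-higher, with 10 in both lists. Their median length of 3352 bp lies in the longest length class, in which 42.4% and 17.2% of all genes were. The tfiis-1-higher share of these genes, 55.6% (35.3 to 74.5), has an interval that includes the 42.4%. Their Col-0-higher share was 51.9% (31.9 to 71.3). Of their 20 Col-0-higher summits 13 lay in the last 10% of the length. HSP81-2 (AT5G56030), a cytosolic HSP90, was tfiis-1-higher at 0.12 (TAIR10 chromosome 5, 22686863) and Col-0-higher at 0.39, 0.72 and 0.99, the last at 22689635. Its close relative HSP81-3 (AT5G56010) had tfiis-1-higher summits at 0.04, 0.65 and 0.88 and a Col-0-higher summit at 0.99. CLPB4 (AT2G25140), a mitochondrial HSP100, had 3 tfiis-1-higher summits from 0.18 to 0.62 and a Col-0-higher summit 21 bp before the end. The heat-inducible HSP70 (AT3G12580) was Col-0-higher alone, at 0.18 and 0.96, as was BIP2 (AT5G42020), an HSP70 of the endoplasmic reticulum, at 0.21 and 0.98. HSP101 (AT1G74310) and HSP90.1 (AT5G52640), both strongly heat-induced in Arabidopsis, were in neither list. Near-identical copies within these families share reads, and the way such reads were assigned was not given in the sources used here, so calls on single copies are uncertain.

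Among 21 members of the family of heat shock transcription factors, 11 were in neither list. Of the others 9 were tfiis-1-higher and 2 Col-0-higher, with 1 in both lists. Their median length of 2064 bp lies in the class in which 25.8% of all genes were tfiis-1-higher and 11.3% Col-0-higher. The family's tfiis-1-higher share of 42.9% has a wide interval (21.8 to 66.0) that includes the 25.8%. Its Col-0-higher share of 9.52% (1.17 to 30.4) is near the 11.3%. HSFA1E (AT3G02990), of the class that starts the response, had tfiis-1-higher summits at 0.02 and 0.29 and a Col-0-higher summit 32 bp before the end. HSFA2 (AT2G26150), which prolongs it, had tfiis-1-higher summits at 0.05 and 0.62. HSFA3 (AT5G03720) was Col-0-higher alone, 25 bp from the start and at 0.43. Among 15 thermotolerance and co-chaperone genes 9 were tfiis-1-higher and 7 Col-0-higher, with 5 in both lists. With a median of 2400 bp they fall in the same length class, with 25.8% and 11.3% of all genes called. BAG6 (AT2G46240) was tfiis-1-higher at 0.03 and Col-0-higher at 0.32 and 0.95. DREB2A (AT5G05410), a transcription factor of heat and drought that acts upstream of HSFA3, was Col-0-higher alone, at 0.27 and 0.93.

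No photosynthesis gene of the list used here was tfiis-1-higher at 3 h. Of 17 genes of the Rubisco small subunit, Rubisco activase and light-harvesting proteins, 0 were tfiis-1-higher at 3 h and 9 were Col-0-higher. At 10 min 12 had been tfiis-1-higher, against 10.9% of all nuclear protein-coding genes. However, 0 were tfiis-1-higher at 0 min and 0 at 30 min, so their absence from that list is not particular to 3 h. At 30 min 4 were already Col-0-higher. The Col-0-higher summits of 3 h had a median of 0.89, and 4 of the 9 lay in the last 10% of the length. RCA (AT2G39730), Rubisco activase, had its summit at 0.39, CAB2 (AT1G29920) at 0.48 and LHCA2 (AT3G61470) at 0.95. With a median of 1655 bp these genes fall in the length class in which 14.6% of all genes were tfiis-1-higher and 9.17% Col-0-higher. The upper limit of the interval for 0 of 17 is 19.5%. Several have near-identical copies, to which the limit on shared reads applies.

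Clock and light-signalling genes gave mixed counts. Of 13 circadian clock genes 8 were tfiis-1-higher and 3 of these also Col-0-higher. GI (AT1G22770), a clock component that also regulates flowering, was tfiis-1-higher at 0.04 and 0.43 and Col-0-higher at 0.61 and 0.99. PCL1 (AT3G46640), the evening-complex gene also known as LUX, was tfiis-1-higher at 0.05 and Col-0-higher at 0.41 and 0.62. Of 13 auxin and light response regulators 6 were tfiis-1-higher and 5 Col-0-higher. The median lengths of the clock and regulator lists, 3445 bp and 3887 bp, lie in the longest length class. In that class 42.4% of all genes were tfiis-1-higher and 17.2% Col-0-higher, against 61.5% and 23.1% of the clock genes and 46.2% and 38.5% of the regulators. COP1 (AT2G32950), a ubiquitin ligase that represses light responses, had 4 tfiis-1-higher summits from 0.14 to 0.52 and a Col-0-higher summit 5 bp before the end. CRY2 (AT1G04400), a blue-light receptor, was Col-0-higher alone, 19 bp before the end, while CRY1 (AT4G08920) was tfiis-1-higher alone, at 0.13 and 0.45.

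Most genes of the proteasome and of translation initiation were tfiis-1-higher. Of 31 genes of 26S proteasome subunits and activators, 25 were tfiis-1-higher and 8 Col-0-higher, and all 8 were in both lists. RPT6A (AT5G19990), an ATPase of the regulatory particle, had tfiis-1-higher summits at 0.18, 0.32, 0.55 and 0.87 and a Col-0-higher summit at 0.96. PA200 (AT3G13330), a proteasome activator with a gene of 10729 bp, had tfiis-1-higher summits at 0.01, 0.07 and 0.15 and a Col-0-higher summit 47 bp before the end. Of 22 genes of translation initiation factors 18 were tfiis-1-higher and 6 of these also Col-0-higher. EIF2 BETA (AT5G20920) was tfiis-1-higher at 0.21 and Col-0-higher 13 bp before the end, and eIFiso4G1 (AT5G57870), a scaffold of the cap-binding complex, had 4 tfiis-1-higher summits from 0.20 to 0.93 and a Col-0-higher summit 16 bp before the end. The median lengths of these lists, 2640 bp and 2818 bp, lie in the class in which 31.9% of all genes were tfiis-1-higher and 12.5% Col-0-higher.

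In smaller lists the few genes called in both directions had the order that 97.3% of all such genes had. Among 11 genes of tRNA synthetases and ligases 7 were tfiis-1-higher and 1 was Col-0-higher. The latter was ALATS (AT1G50200), the alanyl-tRNA synthetase, with tfiis-1-higher summits from 0.11 to 0.46 and a Col-0-higher summit at 0.90. The median length of this list, 3669 bp, lies in the longest length class. The intervals of its shares, 30.8 to 89.1 and 0.230 to 41.3, include the 42.4% and 17.2% of that class. Of 15 importins and nuclear pore proteins 7 (46.7%) were tfiis-1-higher and 3 (20%) Col-0-higher. Their median length of 3876 bp lies in the longest length class, in which 42.4% and 17.2% of all genes were, so these shares are near those of genes of that length. NUP155 (AT1G14850), of the nuclear pore scaffold, had tfiis-1-higher summits at 0.02, 0.13 and 0.34 and a Col-0-higher summit 18 bp before the end. NUA (AT1G79280), a nuclear pore protein with a gene of 14047 bp, had 6 tfiis-1-higher summits, all between 0.01 and 0.52. Of 10 RNA helicase genes 6 were tfiis-1-higher and 2 Col-0-higher. DRH1 (AT3G01540) was among both, with tfiis-1-higher summits at 0.08, 0.40 and 0.79 and a Col-0-higher summit at 0.94. The median length of the helicase list, 3266.5 bp, lies in the class with 31.9% and 12.5% of all genes called. The intervals of its shares, 26.2 to 87.8 and 2.52 to 55.6, include these.

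Cytochrome P450 genes, a large family of oxidases of secondary metabolism and hormones, had shares under the background in both directions. Of 232 genes 19 (8.19%, 5.003 to 12.5) were tfiis-1-higher and 10 (4.31%, 2.09 to 7.78) Col-0-higher, though their median length of 2058.5 bp is near that of all genes. The 6 genes in both lists included CYP72A11 (AT3G14650), with tfiis-1-higher summits at 0.05, 0.18 and 0.53 and a Col-0-higher summit at 0.93. How strongly these genes were transcribed in the seedlings is not measured by the lists, and its part in this count, or in that of any other list, was not tested.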

How the data were processed

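S2P RNAPII ChIP-seq libraries of Arabidopsis seedlings were prepared after formaldehyde crosslinking and Bioruptor shearing, using NEBNext Ultra II reagents with 9 cycles of PCR, per the labels' protocols. Per the submitters' processing notes, which give no roles, Bowtie2, MACS3, deepTools, FastQC and the TAIR10 build were used. The authors deposited lists of summits 1 bp wide, each with its gene and strand, and other columns were not used. The calling threshold, the scaling between genotypes, the handling of inputs, duplicates and reads with several matches, and whether replicates were pooled were not given in the sources used here. Each of these acts on every call and can change the number of sites in each direction. The depth behind the lists is unknown.

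Here repeated lines (among 13077 tfiis-1-higher and 3604 Col-0-higher lines at 3 h) were counted once by chromosome, position and gene. A summit inside overlapping genes was counted in each of them, which added 81 pairs to the tfiis-1-higher list and 163 to the Col-0-higher list. Positions were computed with the RefSeq gene table of TAIR10.1, in which all 9114 gene identifiers of the 8 lists were found. The 1010 gene intervals that other lists of the series hold all equal that table. Exon and UTR annotation was not used. The position code was tested on simulated summits and returned their positions. The background was 27444 nuclear protein-coding genes, and 1 called gene is annotated otherwise. Since the lists hold no value per library, samples entered no fit and no test was run.

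The members, gene lists and descriptions were chosen with earlier results of these data known. Named genes are TFIIS, those with most summits per list, in both lists, new at 3 h or per kb, those whose opposite summits lie closest or in the reverse order, and up to 5 called members per gene list. Other members and the 10 genes named as examples were picked after their values were seen. Of 15 keyword lists planned, 6 were kept. The other 9 were dropped after their matches and calls had been seen, for fewer than 10 matches or for matches to unrelated genes. Keywords were planned for product names or, without these, symbols; the gene table holds no product names, and they were matched to symbols and synonyms. The comparisons of first summits between times, of neighbouring genes and of Col-0-higher genes by number of summits were added after the lists were seen. Alternatives were merging of summits, minimum gene length, single-gene summits, deposited lines, genes in place of summits, 1 position per gene, genes of 2 or more summits and fixed distances. Python 3.11.15, numpy 2.4.6, pandas 2.3.3, scipy 1.17.1 and matplotlib 3.10.9 were used.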

Additional observations from a re-analysis of the deposited data

How the results depend on the processing

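No paired analysis was possible because the lists hold no value per library; for the same reason no replicate could be left out. Promoter motifs were not run, since no promoter sequence was used here. Of 77 recomputed main values, 48 stayed inside their 95% interval or within 1.5 times the count, and 29 moved out of it.

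With summits inside 1 gene only, the tfiis-1-higher share of summits was 80.6% (79.8% as reported) and the share of tfiis-1-higher genes also Col-0-higher 22.1% (24.3%). Lines counted as deposited gave a tfiis-1-higher share of 78.4%, and genes in place of summits 68.7%. Genes of at least 1000 bp put 55.7% of Col-0-higher genes in both lists (53.4%). Taking the most 5′ summit per gene moved the tfiis-1-higher median to 0.23 (0.40), with 1.45% in the last 10% of the gene (4.23%) and 21.5% in the first 10% (11.7%). A fixed 200 bp in place of 10% gave tfiis-1-higher shares of 2.70% at the end and 5.99% at the start, and 62.0% for Col-0-higher at the end (65.5%).

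Keeping genes with 2 or more summits in a list moved the following values, with 3503 tfiis-1-higher and 199 Col-0-higher genes left. The filter was applied to each list at each time, so part of these moves is built in. The rest was not tested. The tfiis-1-higher share became 95.3% and its share in the first 10% became 12.8%. The Col-0-higher median became 0.69 (0.95), with 29.2% in the last 10%. Of tfiis-1-higher genes 0.485%, and of Col-0-higher genes 8.54%, were then in both lists, with 2 or more summits in each. With any number of tfiis-1-higher summits allowed, 25.6% of the 199 Col-0-higher genes were in both. Of the 17 genes left in both lists, 16 (94.1%) kept every tfiis-1-higher summit upstream. In 56.0% of the 3503 tfiis-1-higher genes and 94.5% of the 199 Col-0-higher genes, no earlier list of the same direction held 2 or more summits. These shares are not shares of new genes, since genes with 1 earlier summit are included in them. With any earlier summit counted, as reported, new genes were 35.1% and 80.7%. Called list members became 117 (185) and 11 (103). Asking opposite summits to lie within 500 bp gave 2.88% of tfiis-1-higher and 6.32% of Col-0-higher genes. Counting earlier calls in either direction left 33.9% and 31.1% new, and 30 min alone left 42.5% of tfiis-1-higher genes. For the first summit at 3 h against 30 min, 65.6% moved upstream in genes with 1 summit at both times and 52.1% by more than 100 bp (72.2%). Merging summits within 300 bp moved no main value out of its interval. It left 12155 of 12165 tfiis-1-higher pairs and 3211 of 3213 Col-0-higher pairs, so it could hardly change any value.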

Other observations

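The distance to the next protein-coding gene on the 3′ side gave overlapping intervals for the lists. That gene lay within 500 bp or overlapped for 59.7% (57.6 to 61.8) of the genes with a Col-0-higher summit in the last 10% of their length, for 56.3% (52.9 to 59.6) of the other Col-0-higher genes and for 59.5% (58.1 to 60.8) of the genes that were tfiis-1-higher alone. Over the genes of any of the 8 lists the share was 58.6% (57.6 to 59.6).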
